A study of Mus musculus with 24 samples.

Results

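Mmp2, Met, Epb41l4b, Fzd8 and Garem1 are 5 of the 18194 genes that the arrays represented by a probe set with a single symbol. They were chosen by their RMA values on the 13 arrays described here, for a signal that was lower in Dnmt1 hypomorph than in wildtype cells in both haematopoietic stem cells (HSC) and myeloid progenitors (MP). Their genotype differences are therefore given as a description, without a test, and nothing is read from them. All probe sets annotated to these symbols alone, 11 in number, are described. The 5 genes passed the filter on dim probe sets, which asked for 2 arrays at or above 4.64, the median of all log2 values. Of the 3 hypomorph HSC and 3 hypomorph MP arrays, 0 and 1 reached that level for Met, 0 and 3 for Garem1, and 2 and 1 for Fzd8, while all wildtype HSC and MP arrays did. Of the 2 B progenitor arrays 0 reached it for Met, 0 for Garem1, 1 for Mmp2 and 2 for Fzd8. Met and Garem1 thus passed without the B progenitor arrays, and their comparisons with B progenitors below depend in part on that filter.

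Expression was measured on Affymetrix arrays with RNA of cells sorted from bone marrow of mice of the 129ola background, aged 8 to 12 weeks. HSC and MP from mice with the genotype Dnmt1-/chip, the hypomorph, were hybridised on 3 arrays each. Wildtype cells, labelled Dnmt1+/+, comprised 2 arrays of HSC, 3 of MP and 2 of B cell progenitors, and B progenitors were measured in the wildtype alone. The labels leave unstated if replicate arrays stand for different mice. Sex-linked genes, given below, differed widely within wildtype HSC, wildtype MP, hypomorph MP and B progenitors, so those replicates were not all repeats of 1 sample. Within hypomorph HSC the Y-linked gene Kdm5d differed as well. Each p-value reflects array-to-array spread, of which the technical part is not known, and the small number of arrays limits the precision. Dnmt1, which encodes the maintenance DNA methyltransferase, was lower in the hypomorph by a log2 difference of -2.75 (SE 0.24, limma adjusted p = 2.85e-05) in HSC and -3.34 (SE 0.22, limma adjusted p = 7.28e-06) in MP.

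Mmp2 encodes a secreted gelatinase that cuts denatured collagen and basement membrane collagen. It is made as a proenzyme that the membrane protease Mmp14 activates in a complex with the inhibitor Timp2. Met encodes the receptor tyrosine kinase for hepatocyte growth factor, Hgf, and signals through the docking protein Gab1 and the adaptor Grb2 to the Erk cascade. Fzd8 encodes a seven-pass receptor of the Frizzled family that binds Wnt ligands together with the coreceptors Lrp5 and Lrp6. Garem1 encodes an adaptor that binds Grb2 and the phosphatase encoded by Ptpn11, and acts on Erk signalling below growth factor receptors. Epb41l4b encodes a protein of the band 4.1 family whose FERM domain links membrane proteins to the cytoskeleton.

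Dnmt1 copies methylation at CpG sites, so the CpG content of the sequence upstream of the start site is shown for Met and Epb41l4b, with promoter windows taken from RefSeq. Methylation was not measured here, and the part of CpG content in the differences below was not tested. No window is shown for Mmp2, Fzd8 and Garem1. The 250 bases before the start are given 5′ to 3′ on the strand of the gene, with each CpG in capitals. The Met window lies at chr6:17463707-17463956 on the plus strand and the Epb41l4b window at chr4:57143157-57143406 on the minus strand, both in GRCm38.p6.
Met: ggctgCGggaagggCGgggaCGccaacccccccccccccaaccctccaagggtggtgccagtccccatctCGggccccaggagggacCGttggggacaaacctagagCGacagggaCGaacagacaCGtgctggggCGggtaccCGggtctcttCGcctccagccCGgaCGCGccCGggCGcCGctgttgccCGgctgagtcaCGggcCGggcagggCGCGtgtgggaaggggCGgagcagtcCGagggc
Epb41l4b: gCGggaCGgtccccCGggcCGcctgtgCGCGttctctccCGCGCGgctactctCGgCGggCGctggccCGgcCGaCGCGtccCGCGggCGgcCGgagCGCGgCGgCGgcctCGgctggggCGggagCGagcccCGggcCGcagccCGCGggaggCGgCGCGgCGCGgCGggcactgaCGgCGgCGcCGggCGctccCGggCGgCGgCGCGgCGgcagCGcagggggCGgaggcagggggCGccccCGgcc
The Met window held 24 CpG sites at 74.0% GC, and 12.0% of 32851 promoter windows of the same length held at least as many. The Epb41l4b window held 52 CpG sites at 88.0% GC, and 0.0487% of windows held at least as many, against a median of 6 CpG sites over all windows. The motif searched was CG, which reads the same on both strands, and 92.1% of windows held at least 1 copy.

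The populations carried the markers of their labels. The mean log2 level of 16 HSC marker genes was 9.77 to 9.92 on wildtype HSC arrays, 7.39 to 7.88 on wildtype MP arrays and 4.93 to 5.18 on B progenitor arrays. The mean of 13 MP markers was 7.41 to 7.58 in wildtype HSC and 11.12 to 11.35 in wildtype MP, and that of 12 B progenitor markers was 11.47 to 11.54 in B progenitors and at most 5.93 elsewhere. In hypomorph HSC the MP markers were at 8.36 to 8.79 and the HSC markers at 8.90 to 9.39, so both lists lay between wildtype HSC and wildtype MP. Of the HSC markers 5 fell and 1 rose in hypomorph HSC, and of the MP markers 4 of 13 rose and 0 fell (limma adjusted p under 0.05). Of the 12 B progenitor markers, 0 rose and 2 fell there, Cd79b (-0.89, limma adjusted p = 0.0394) and Igll1 (-0.77, limma adjusted p = 0.0461), with a list median of -0.35. In MP the mean of the HSC markers was 7.05 to 7.30 in the hypomorph, with a median difference of -0.54, and 1 of 16 was called, Fgd5 (-1.74, limma adjusted p = 0.0102). Of the 12 B progenitor markers, 0 rose and 2 fell in hypomorph MP, Dntt (-4.18, limma adjusted p = 1e-05) and Il7r (-1.31, limma adjusted p = 0.0412). The median difference of that list in MP was 0.04. Of the 13 MP markers, 0 fell and 1 rose there, Fcgr3 (1.11, limma adjusted p = 0.0108), with a list median of 0.05. The part of these shifts in the differences below was not tested. The Y-linked gene Eif2s3y ran from 2.35 to 8.68 on wildtype HSC arrays and from 6.95 to 9.31 on hypomorph HSC arrays. It ran from 2.75 to 9.35 on wildtype MP arrays and from 2.87 to 9.22 on hypomorph MP arrays. Kdm5d, also Y-linked, read 6.18, 3.28 and 6.09 on hypomorph HSC 1 to 3. On B progenitor 1 and 2 Eif2s3y read 10.16 and 2.47, and the X-linked gene Xist read 4.61 and 12.86. Arrays of the same group thus differed widely in sex-linked genes, and the B progenitor comparisons rest on 2 such arrays. The part of sex in the differences below was not tested.

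Mmp2, the protease gene, had the widest range of the 5 genes. Its main probe set, 1439364_a_at, read 9.52 and 10.28 in wildtype HSC, and 5.54, 5.57 and 5.02 in hypomorph HSC. It read 7.54, 7.38 and 7.76 in wildtype MP, 4.65, 4.30 and 4.77 in hypomorph MP, and 5.32 and 4.60 in B progenitors. All hypomorph arrays lay below all wildtype arrays of the same cell type, and the hypomorph levels overlapped those of B progenitors. The mean of the wildtype HSC arrays was 9.90 ± 0.53 (SD, n = 2) and that of the hypomorph HSC arrays 5.38 ± 0.31 (SD, n = 3), a log2 difference of -4.52 (SE 0.29), or 23.0-fold. In MP they were 7.56 ± 0.19 (SD, n = 3) and 4.57 ± 0.25 (SD, n = 3), a log2 difference of -2.99 (SE 0.26), or 7.93-fold. In these sorted populations, fewer cells with the transcript and less transcript per cell cannot be told apart.

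Between wildtype populations Mmp2 was highest in HSC. MP were lower than HSC by a log2 difference of -2.34 (SE 0.29, limma adjusted p = 5.77e-05), and B progenitors, at 4.96 ± 0.51 (SD, n = 2), were lower than HSC by -4.94 (SE 0.32, limma adjusted p = 4.05e-08). B progenitors were also lower than MP, by -2.60 (SE 0.29, limma adjusted p = 8.57e-06). The wildtype HSC and MP arrays in these comparisons were also part of the choice of the genes, so the tests here and below are not fully independent of it. The other Mmp2 probe set, 1416136_at, gave the same order of wildtype populations, at 8.58, 6.49 and 4.68, and genotype differences of -4.07 (SE 0.36) in HSC and -2.56 (SE 0.33) in MP. Its hypomorph values were 4.83, 4.83 and 3.88 in HSC and 4.02, 4.06 and 3.73 in MP, near or below the median of all values.

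Mmp2 is also made by stromal cells, so stromal genes are given beside it. The mean level of 8 mesenchymal stroma markers was 6.61 to 6.66 in wildtype and 6.37 to 6.56 in hypomorph HSC, and 5.64 to 5.72 in wildtype and 5.84 to 5.98 in hypomorph MP. Of these markers, Col1a2 (-1.35, limma adjusted p = 0.0224) and Bgn (-1.0, limma adjusted p = 0.0470) were lower in hypomorph HSC, and 0 of 8 were called in MP, where their differences were 0.68 and 0.75. In wildtype HSC the mean levels of the 8 markers were 10.02 for Bgn, 9.71 for Pdgfrb, 8.73 for Col1a2, 5.85 for Sparc, 4.99 for Postn, 4.98 for Fn1, 4.87 for Dcn and 3.93 for Cxcl12. The mean of 9 endothelial markers was 5.63 to 5.95 in wildtype and 5.06 to 5.53 in hypomorph HSC, and 1 of them fell there, Emcn (-1.41, limma adjusted p = 0.0407). The mean of 7 macrophage markers was 6.71 to 6.77 in wildtype and 6.84 to 6.90 in hypomorph MP, and 1 of them rose there, Vcam1 (2.16, limma adjusted p = 0.00550). The part of these markers in the Mmp2 differences was not tested.

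**Figure D1:**
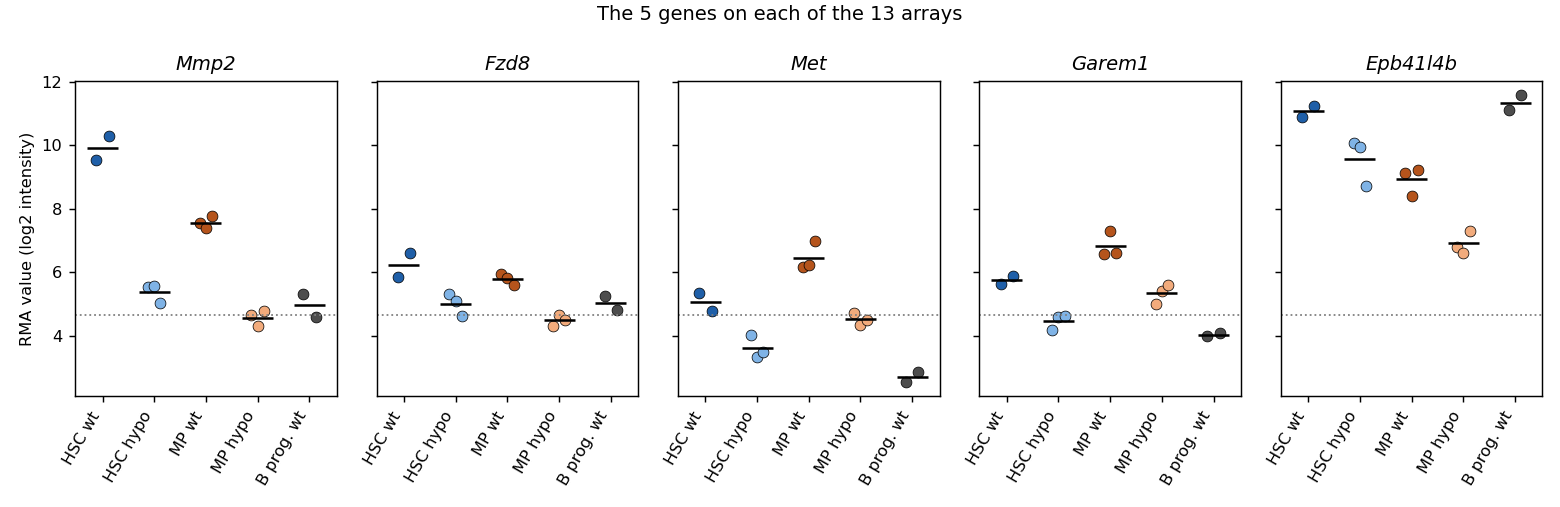
RMA values (log2 intensity, vertical axis) of the main probe set of each gene on the 13 arrays, by group (horizontal axis; wt, wildtype; hypo, hypomorph). Points are arrays, bars are group means and the dotted line is the median of all values, 4.64. In every panel the hypomorph arrays lie below the wildtype arrays of the same cell type, and the B progenitor mean is lowest for Met and Garem1 and highest for Epb41l4b, where it overlaps wildtype HSC.

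Fzd8, a Wnt receptor gene, had similar levels in wildtype HSC and wildtype MP arrays, whose ranges overlapped. Its main probe set, 1423348_at, read 5.84 and 6.60 in wildtype HSC, and 5.30, 5.11 and 4.63 in hypomorph HSC. It read 5.94, 5.82 and 5.60 in wildtype MP, 4.32, 4.67 and 4.51 in hypomorph MP, and 5.25 and 4.80 in B progenitors. The genotypes did not overlap within a cell type, with gaps of 0.54 in HSC and 0.93 in MP between the nearest arrays. The log2 difference was -1.21 (SE 0.27) in HSC and -1.29 (SE 0.24) in MP, or 2.31-fold and 2.45-fold.

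In the wildtype, Fzd8 did not differ between MP and HSC beyond the spread (-0.43, SE 0.27, limma adjusted p = 0.252). B progenitors, at 5.03 ± 0.32 (SD, n = 2), were lower than HSC by -1.19 (SE 0.30, limma adjusted p = 0.00478) and lower than MP by -0.76 (SE 0.27, limma adjusted p = 0.0410). The B progenitor call against HSC was lost without the B progenitor 2 array (-0.96, limma adjusted p = 0.0505) and without the wildtype HSC 2 array (-0.81, limma adjusted p = 0.0659). The call against MP was lost for 8 of the 13 arrays left out in turn, most clearly without B progenitor 2 (-0.54, limma adjusted p = 0.256), and with array weights (-0.65, limma adjusted p = 0.0524). The means of B progenitors and of hypomorph HSC, 5.03 and 5.01, differed by -0.02, and their ranges overlapped. The other probe set, 1445815_at, lay between 2.82 and 3.64 on all arrays and showed no order of the groups.

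Met, the receptor gene for hepatocyte growth factor, was higher in progenitors of the myeloid branch than in HSC. Its main probe set, 1434447_at, read 5.36 and 4.78 in wildtype HSC, and 4.04, 3.34 and 3.48 in hypomorph HSC. It read 6.16, 6.24 and 6.99 in wildtype MP, 4.72, 4.35 and 4.51 in hypomorph MP, and 2.55 and 2.85 in B progenitors. No neighbouring groups overlapped in the order wildtype MP, wildtype HSC, hypomorph MP, hypomorph HSC and B progenitors, although wildtype HSC 2 and hypomorph MP 1 were close, at 4.78 and 4.72. The genotype difference was -1.45 (SE 0.30) in HSC and -1.93 (SE 0.26) in MP, or 2.73-fold and 3.82-fold.

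Wildtype MP exceeded wildtype HSC in Met by a log2 difference of 1.39 (SE 0.30, limma adjusted p = 0.00294). B progenitors, at 2.70 ± 0.21 (SD, n = 2), were lower than HSC by -2.37 (SE 0.32, limma adjusted p = 4.32e-05) and lower than MP by -3.76 (SE 0.30, limma adjusted p = 2.52e-07). The mean percentile of Met on the B progenitor arrays was 7.31. No detection calls were used, so whether such a level lay above background is not known, and fold changes of dim genes may be understated. The other Met probe set, 1422990_at, did not show any of these differences. It lay between 3.04 and 3.80 on all arrays, with genotype differences of -0.06 (SE 0.17) in HSC and 0.24 (SE 0.16) in MP.

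Garem1, the Grb2-binding adaptor gene, had the same order of groups as Met. Its main probe set, 1436827_at, read 5.63 and 5.88 in wildtype HSC, and 4.19, 4.58 and 4.63 in hypomorph HSC. It read 6.56, 7.31 and 6.62 in wildtype MP, 4.99, 5.41 and 5.60 in hypomorph MP, and 3.99 and 4.09 in B progenitors. Wildtype HSC and hypomorph MP nearly touched, at 5.63 and 5.60, and the other neighbours in that order were further apart or, for hypomorph HSC and B progenitors, 4.19 and 4.09 at the nearest. The genotype difference was -1.29 (SE 0.27) in HSC and -1.49 (SE 0.24) in MP, or 2.45-fold and 2.82-fold.

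Wildtype MP exceeded wildtype HSC in Garem1 by 1.07 (SE 0.27, limma adjusted p = 0.00765), a call lost without wildtype HSC 1 (0.95, limma adjusted p = 0.0545) and with the probe sets averaged (0.11, limma adjusted p = 0.757). B progenitors, at 4.04 ± 0.07 (SD, n = 2), were lower than HSC by -1.72 (SE 0.29, limma adjusted p = 2.66e-04) and lower than MP by -2.79 (SE 0.27, limma adjusted p = 1.71e-06). The other probe set, 1456271_at, read 5.20 on wildtype HSC 1 and at most 3.73 on every other array. Its genotype difference of -1.02 (SE 0.38) in HSC rests on that array, and it was -0.01 (SE 0.34) in MP.

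Epb41l4b, the FERM domain gene, was the only one of the 5 with its highest mean in B progenitors. Its main probe set, 1418294_at, read 10.89 and 11.25 in wildtype HSC, and 10.08, 9.93 and 8.71 in hypomorph HSC. It read 9.14, 8.41 and 9.23 in wildtype MP, 6.81, 6.60 and 7.31 in hypomorph MP, and 11.11 and 11.57 in B progenitors. Hypomorph HSC 3 stood 1.22 below the next array of its group and overlapped wildtype MP. The genotype difference was -1.50 (SE 0.39) in HSC and -2.02 (SE 0.34) in MP, or 2.82-fold and 4.06-fold, and the HSC value was -1.06 without hypomorph HSC 3.

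B progenitors, at 11.34 ± 0.32 (SD, n = 2), exceeded MP in Epb41l4b by 2.41 (SE 0.39, limma adjusted p = 2.21e-04), and did not differ from HSC beyond the spread (0.27, SE 0.42, limma adjusted p = 0.642). With its probe sets averaged the difference between B progenitors and HSC was 0.74 (limma adjusted p = 0.0173). Wildtype MP were lower than HSC by -2.14 (SE 0.39, limma adjusted p = 9.47e-04). Of the other probe sets, 1456570_at was also highest in B progenitors, at 5.05 and 4.96 against at most 3.67 elsewhere. Its genotype difference was -0.84 (SE 0.18) in HSC and 0.04 (SE 0.16) in MP, where all values lay between 2.46 and 2.86. The remaining probe set, 1455628_at, had differences of -0.22 (SE 0.18) and -0.28 (SE 0.16).

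**Figure D2:**
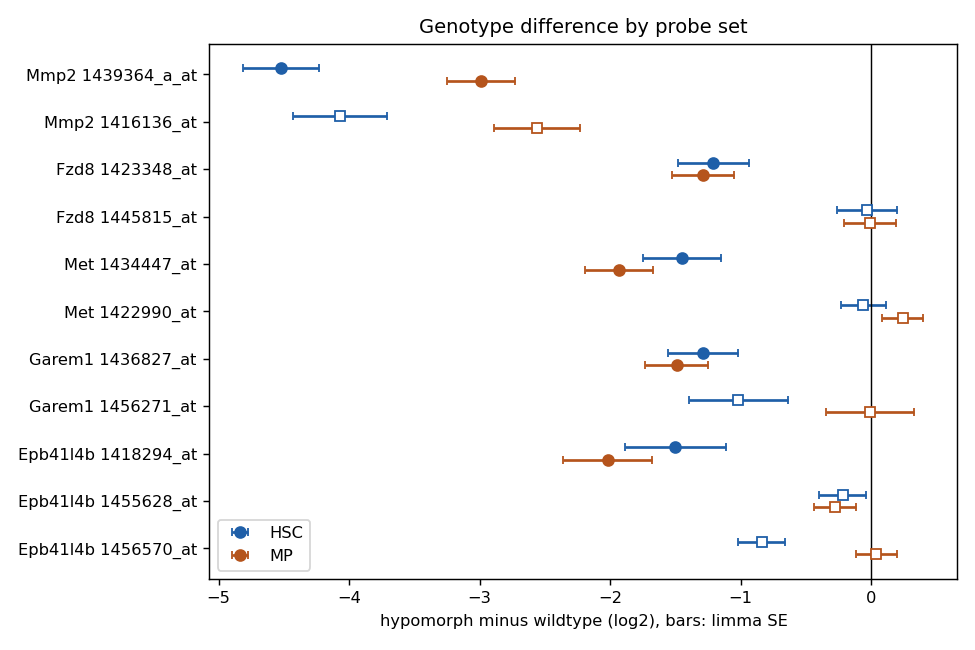
Log2 difference of hypomorph minus wildtype (horizontal axis) for all 11 probe sets of the 5 genes (vertical axis), in HSC (blue) and MP (orange). Filled circles mark the probe set that stood for its gene, open squares the others, and bars are the limma SE. Only Mmp2 has further probe sets with a difference of over 2 in both cell types, while the other probe sets of Fzd8 and Met lie near 0.

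Across the main probe sets, all 5 genes had every hypomorph array below every wildtype array in HSC and again in MP, as their choice implies. Over the 12765 genes tested, 22.4% had this order in HSC, 16.3% in MP and 2.60% in both. The limma test at an adjusted p of 0.05 called 5.44% of all genes lower in hypomorph HSC and 0.251% lower in hypomorph MP, and 10.8% and 0.588% in either direction. The median difference over all genes was -0.11 in HSC and -0.02 in MP. The Mmp2 difference was larger in HSC than in MP, by 1.53 on the log2 scale, and the differences of the other 4 genes were 0.08 to 0.52 smaller in HSC than in MP. These gaps were part of the choice and were not tested. Among the MP arrays with low Eif2s3y, Mmp2 read 4.30 in the hypomorph and 7.76 in the wildtype, Met 4.35 and 6.99, Garem1 5.41 and 6.62, Fzd8 4.67 and 5.60, and Epb41l4b 6.60 and 9.23, with 1 array of each genotype. The order within these pairs was fixed by the choice of the genes, and the part of sex was not tested. In HSC no hypomorph array had an Eif2s3y level as low as that of wildtype HSC 2. Kdm5d, however, read 3.28 on hypomorph HSC 2 and 2.80 on wildtype HSC 2.

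The position of hypomorph HSC relative to both wildtype populations differed between the genes. Hypomorph HSC had a lower mean than wildtype HSC and than wildtype MP in Mmp2, Met, Garem1 and Fzd8. Epb41l4b was the exception, with a mean of 9.57 ± 0.75 (SD, n = 3) in hypomorph HSC between 11.07 and 8.93.

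**Figure D3:**
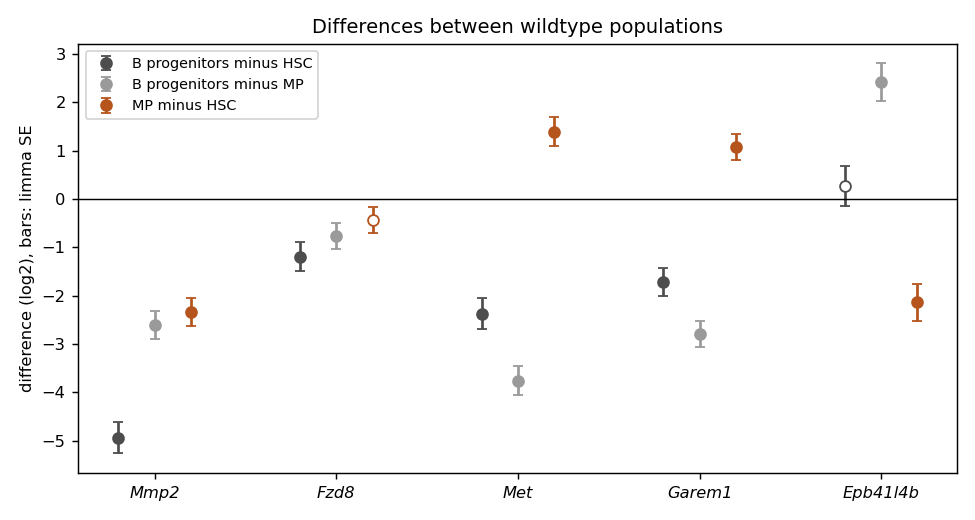
Log2 differences between wildtype populations (vertical axis) for the 5 genes (horizontal axis), with limma SE as bars. Filled points passed a limma adjusted p of 0.05, and open points did not. Epb41l4b alone has no negative difference in B progenitors, and only Met and Garem1 are higher in MP than in HSC.

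Of the 5 genes, 4 were called between wildtype B progenitors and HSC, all lower in B progenitors, where 30.2% of all genes tested were called lower and 45.1% in either direction. Between B progenitors and MP all 5 were called, 4 lower and Epb41l4b higher, with 24.7% of all genes called lower, 11.2% higher and 35.9% in either direction. Between MP and HSC 4 were called, Met and Garem1 higher and Mmp2 and Epb41l4b lower, with 13.8% of all genes called higher, 18.0% lower and 31.8% in either direction. These populations differed in a large share of all genes, and the counts of the 5 genes are to be read against those shares. Met and Garem1 passed the filter without the B progenitor arrays, so their calls against B progenitors depend in part on the filter.

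By their profile over the 13 arrays the genes were most alike as Mmp2 with Fzd8 and Met with Garem1. Mmp2 and Fzd8 had a Pearson r of 0.92, as did Met and Garem1, while Epb41l4b had an r of 0.46 with Mmp2, 0.55 with Fzd8, -0.29 with Met and -0.31 with Garem1. These values are descriptions, since the arrays share their groups and the genes were chosen for a common genotype difference. Among all genes tested, the closest to Fzd8 were Mmp2 (r = 0.921), Araf (0.868) and Kctd15 (0.863). For Mmp2 the closest genes were Serpinf1 (0.936), Fzd8 (0.921) and Kctd15 (0.907). Met and Garem1 were each the closest gene to the other (r = 0.922), followed for Met by Zfp516 (0.919) and Pstpip2 (0.915), and for Garem1 by Ncam1 (0.917) and Nat8l (0.898). For Epb41l4b the closest were Trim21 (0.967), Tigd2 (0.961) and Selenop (0.961). Spearman's rank correlation kept 5 of these 15 pairs among the closest 3, among them Met with Garem1 in both directions, so most of the other names depend on the measure.

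**Figure D4:**
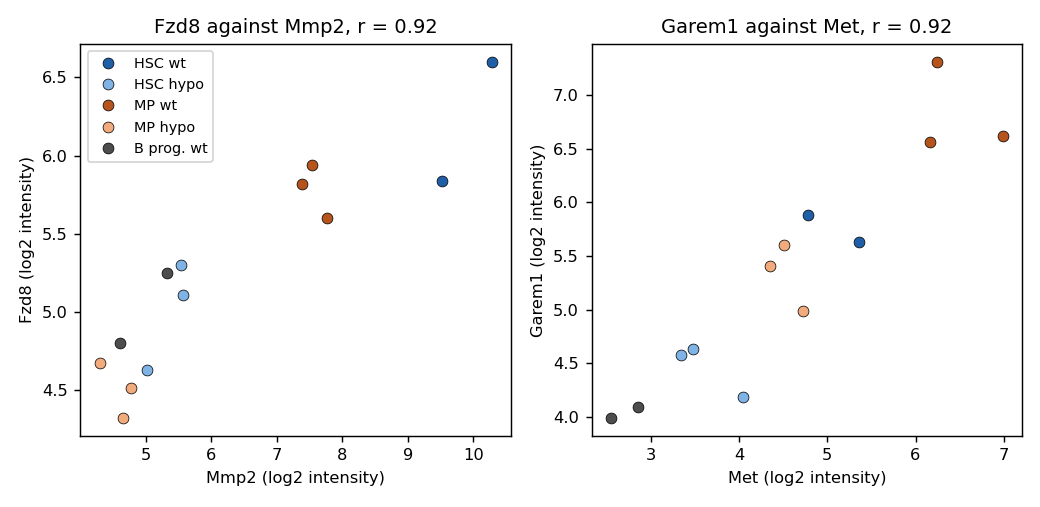
Log2 intensity of Fzd8 against Mmp2 (left) and of Garem1 against Met (right) on the 13 arrays, coloured by group. Both pairs have a Pearson r of 0.92, with wildtype HSC at the upper right on the left and wildtype MP at the upper right on the right.

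Partners and pathway genes of the 5 were described from lists of 155 genes, none of them among the 5, and 117 were tested. In HSC 5 rose and 9 fell (limma adjusted p under 0.05), or 4.27% and 7.69%, against 5.37% and 5.44% of all genes. In MP 1 rose and 1 fell, against 0.337% and 0.251% of all genes, and 48 were called in MP with array weights. The median difference was -0.11 in HSC and -0.05 in MP. Of the 14 calls in HSC, only those of Ccnd1 and Etv5 held with each array left out in turn, and 3 genes were called without wildtype HSC 2.

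Of 12 matrix metalloproteinase and inhibitor genes tested, 1 fell in hypomorph HSC and 0 rose, with a median of -0.32. In MP limma called 0 (2 at an unadjusted p under 0.05), with a median of 0.29. The gene that fell was Timp2, the inhibitor that joins Mmp14 in activating the Mmp2 proenzyme, with a mean of 9.26 ± 0.16 (SD, n = 2) on wildtype HSC arrays against 8.28 ± 0.09 (SD, n = 3) on hypomorph ones (-0.98, SE 0.24, limma adjusted p = 0.0208). Its difference in MP was 0.28. The call of Timp2 was lost without wildtype HSC 2 or hypomorph HSC 2 (limma adjusted p at most 0.170). Mmp14, the activating membrane protease, had differences of -0.53 (limma adjusted p = 0.147) in HSC and 0.46 (0.305) in MP.

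Of 21 genes around Met, 1 rose and 2 fell in hypomorph HSC, with a median of -0.25, and limma called 0 in MP (4 at an unadjusted p under 0.05; median -0.12). Gab1, the docking protein that Met phosphorylates, fell from 9.53 ± 0.62 (SD, n = 2) to 8.02 ± 0.26 (SD, n = 3), by -1.52 (SE 0.27, limma adjusted p = 0.00318), and Plcg1, a phospholipase recruited by receptor kinases, fell by -0.96 (limma adjusted p = 0.0165). The adaptor gene Crk rose by 1.19 (limma adjusted p = 0.0474), a call lost for 10 of the 13 arrays left out in turn. The calls of Gab1 and Plcg1 were lost without wildtype HSC 2, and that of Plcg1 also without hypomorph HSC 2. With all probe sets of a gene averaged, the calls of Plcg1 and Crk were lost, with Crk at 0.59 (limma adjusted p = 0.103). Hgf, the ligand gene, averaged 6.13 ± 0.69 (SD, n = 2) on wildtype HSC arrays and 6.18 ± 0.14 (SD, n = 3) on hypomorph ones, with a difference of 0.06 (limma adjusted p = 0.939), and of -0.08 in MP (limma adjusted p = 0.919).

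Of 18 FERM domain genes, 1 rose and 2 fell in hypomorph HSC, with a median of -0.34, and limma called 0 in MP (2 at an unadjusted p under 0.05; median -0.23). The phosphatase genes Ptpn14 and Ptpn21 fell by -1.44 (limma adjusted p = 0.00893) and -0.94 (limma adjusted p = 0.0315), and radixin, Rdx, which ties membrane proteins to actin, rose by 2.15 (SE 0.58, limma adjusted p = 0.0302). All 3 calls were lost without wildtype HSC 2. Leaving out other HSC arrays ended the Rdx call in 2 more cases and the Ptpn21 call in 3 more. Averaging all probe sets of a gene also ended the calls of Ptpn14 and Ptpn21. Among the close relatives of Epb41l4b, Epb41l4a had differences of -0.38 in HSC (limma adjusted p = 0.430) and 0.02 in MP (limma adjusted p = 0.981). Epb41l5 had -0.85 in HSC (limma adjusted p = 0.109) and 0.45 in MP (limma adjusted p = 0.483). Epb41l5 also had its highest mean in B progenitors, at 7.34 ± 0.26 (SD, n = 2) against 5.93 ± 0.33 (SD, n = 2) in wildtype HSC, a difference that was not tested.

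Of 37 Wnt pathway genes, 1 rose and 3 fell in hypomorph HSC (median -0.19), and 1 rose and 1 fell in MP (median 0.03). The cyclin gene Ccnd1, a target of Wnt and Erk signalling, rose in both, by 2.73 (SE 0.47, limma adjusted p = 0.00296) in HSC and 2.47 (SE 0.42, limma adjusted p = 0.0124) in MP. The MP call of Ccnd1 was lost without hypomorph MP 1, hypomorph MP 2 or wildtype MP 3 (limma adjusted p at most 0.0734). The Wnt receptor gene Fzd4 fell in HSC by -1.22 (SE 0.26, limma adjusted p = 0.0102), as did Rnf43, whose product removes Frizzled receptors from the membrane (-1.0, limma adjusted p = 0.0416), and the ligand gene Wnt5b (-0.99, limma adjusted p = 0.0315), which is named after its values were seen. Wnt5b, at 5.17 in wildtype and 4.18 in hypomorph HSC, passed the filter through the wildtype HSC arrays and was not tested without either of them. Its call was lost without hypomorph HSC 1 or 2 and in 5 of 10 other settings. Znrf3, a relative of Rnf43, fell in MP by -1.58 (limma adjusted p = 0.0492), a call lost for 8 of the 13 arrays left out in turn. Fzd4 lost its call without either wildtype HSC array, and Rnf43 for 6 of the 11 arrays whose omission left it tested. The Rnf43 call was also lost in 7 of 9 other settings. Its means of 4.43 in wildtype and 3.43 in hypomorph HSC lay below the filter level of 4.64. Lrp6 had differences of -0.17 in HSC (limma adjusted p = 0.767) and -0.30 in MP (limma adjusted p = 0.628), and Lrp5, between 3.01 and 3.74 on all arrays, did not pass the filter.

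Of 29 genes of Grb2 adaptors and the Erk cascade, 2 rose and 1 fell in hypomorph HSC, with a median of 0.18, and limma called 0 in MP (8 at an unadjusted p under 0.05; median -0.15). The genes that rose were the transcription factor gene Etv5 (1.93, SE 0.37, limma adjusted p = 0.00563) and the Erk phosphatase gene Dusp6 (1.82, SE 0.36, limma adjusted p = 0.00693). Spry1, which encodes an inhibitor of receptor kinase signalling, fell by -0.85 (limma adjusted p = 0.0329). Dusp6 and Spry1 lost their calls without wildtype HSC 2, and Spry1 also without wildtype HSC 1 or hypomorph HSC 2. Grb2 had differences of 0.75 in HSC (limma adjusted p = 0.109) and 0.02 in MP (limma adjusted p = 0.982), and Ptpn11 of -0.09 (limma adjusted p = 0.870) and -0.46 (limma adjusted p = 0.394).

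**Figure D5:**
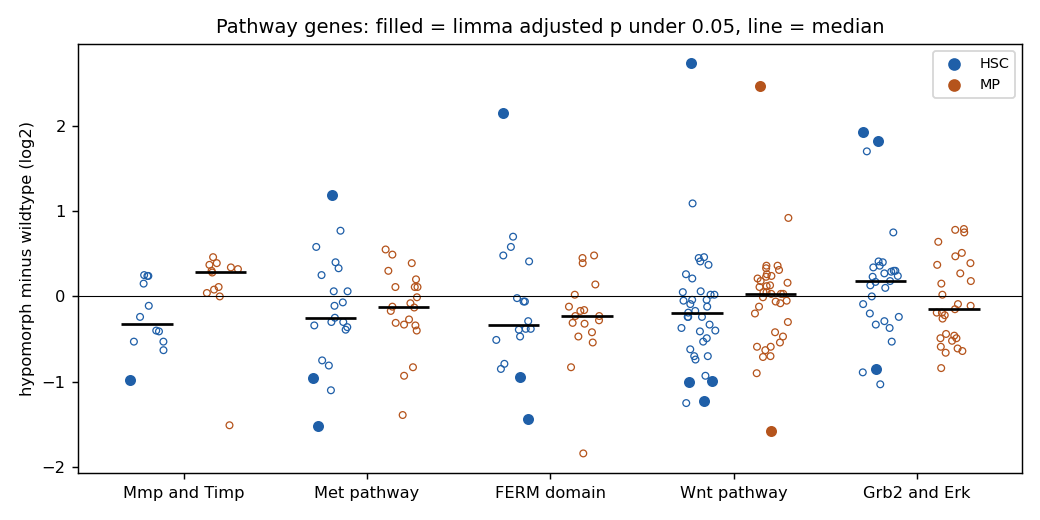
Log2 difference of hypomorph minus wildtype (vertical axis) for the tested genes of the 5 pathway lists (horizontal axis) in HSC (blue) and MP (orange). Filled points passed a limma adjusted p of 0.05 and lines are list medians. In MP only Ccnd1 (2.47) and Znrf3 (-1.58) are filled.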

How the data were processed

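The authors deposited RMA values, and RMA is named in the submitters' processing notes without a version. The deposited values, from 1.92 to 15.01, were read as log2 intensities by their range, so the log base is an inference. The 24 columns hold 13 arrays (set 1, used throughout) and a further normalization of 11 of them (set 2, an alternative). Set 2 arrays had an r of at least 0.9987 with the same label in set 1 and at most 0.9949 with any other. Array medians were 4.56 to 4.74. Of 45101 probe sets, 34958 carried 1 symbol, 932 several and 9211 none, and 34754 were matched by Entrez identifier to RefSeq without a change of symbol. The probe set with the highest mean among those passing the filter stood for its gene. A limma model (version 3.58.1, R 4.3.3) of 5 groups with 8 residual degrees of freedom was fitted to 12765 genes. Benjamini-Hochberg adjustment ran over all of them. The genes, pathway lists and marker lists were chosen with earlier results of these data known. Named pathway genes were the 10 partners and up to 2 called genes in each direction per list and comparison. Wnt5b was added to them after its values were seen.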

Additional observations from a re-analysis of the deposited data

Results flagged for a closer look

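Of 22 named pathway genes, 6 passed the interaction term of limma, the test of a genotype difference that differs between HSC and MP. The 22 and the 6 include Wnt5b, which was named after its values were seen and passed the filter through the wildtype HSC arrays. Most of the 22 were named because they were called in HSC or MP, so this count is not to be set against other genes. The HSC difference minus the MP difference was -1.26 for Timp2 (limma adjusted p = 0.0394), with differences of -0.98 and 0.28. It was 2.01 for Crk (limma adjusted p = 0.0278), with 1.19 and -0.83, and -1.33 for Ptpn21 (limma adjusted p = 0.0384), with -0.94 and 0.39. It was -1.48 for Fzd4 (limma adjusted p = 0.0284), with -1.22 and 0.26, and 2.04 for Znrf3 (limma adjusted p = 0.0299), with 0.46 and -1.58. Each of these 5 was lost for 6 or 7 of the 13 arrays left out in turn. Averaging all probe sets of a gene also ended those of Timp2, Crk and Ptpn21. For Wnt5b the value was -1.32 (limma adjusted p = 0.0488), with -0.99 and 0.33, and it was lost for 9 of the 11 arrays whose omission left the gene tested.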

How the results depend on the processing

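No genotype difference and no called value of the 5 genes changed sign under any setting run, with the main probe set or the mean of all standing for each gene. Taken alone, further probe sets gave the opposite sign for the MP genotype difference of Met (0.24) and Epb41l4b (1456570_at, 0.04), and the same sign for all other genotype differences. The opposite sign also held for Met (-0.06) and Garem1 (-0.86) between wildtype MP and HSC. For Fzd8 it held between B progenitors and HSC (0.23) or MP (0.29). Averaging all probe sets of a gene moved the genotype differences of Epb41l4b to -0.86 in HSC and -0.75 in MP, of Met to -0.75 and -0.85, and of Garem1 in MP to -0.75; it also gave 0.74 for Epb41l4b between B progenitors and HSC, now called, and 0.11 for Garem1 between MP and HSC, no longer called. Averaging brings in the dim probe sets described above. Array weights ended the Fzd8 call between B progenitors and MP (-0.65, limma adjusted p = 0.0524), but their default estimate did not converge. Weights estimated gene by gene, an alternative chosen after seeing the data and the default result, kept that call (-0.71, limma adjusted p = 0.0443 for Fzd8). With arrays left out in turn, Fzd8 ran from -1.57 to -0.81 between B progenitors and HSC and from -0.99 to -0.54 between B progenitors and MP, and Garem1 from 0.83 to 1.20 between MP and HSC. A filter at the 75th percentile (7.10) left only Mmp2 and Epb41l4b tested, so the counts became 2 lower in HSC, 2 lower in MP, 1 called between B progenitors and HSC, 2 between B progenitors and MP and 2 between MP and HSC. Pathway genes called in HSC, 14 as reported, were 7 with the replicate number as a block, 0 with only the arrays compared (22 at an unadjusted limma p under 0.05) and 3 to 17 with arrays left out. In MP, 2 as reported, they were 1 with the replicate block, set 2, centred arrays, no filter, every probe set or averaged probe sets, 4 with only the arrays compared, 48 with array weights, 45 with gene-by-gene weights and 0 to 4 with arrays left out. All genes called in HSC, 1380 as reported, were 899 with the block, 140 with only the arrays compared, 697 without hypomorph HSC 2 430 without wildtype HSC 2 and 2346 with array weights (1277 gene by gene), and in MP, 75 as reported, 183 without wildtype MP 2, 140 without hypomorph HSC 3, 38 without hypomorph MP 2, 40 and 43 without wildtype MP 3 and 1, 164 with only the arrays compared and 4608 with array weights (3902 gene by gene). The cause of these moves was not tested. Over 11 pairs of arrays of the same number, r of their deviations ran from -0.20 to 0.30, and the numbers were not taken to pair them. Those pairs did not include hypomorph HSC with hypomorph MP. Xist read 9.83, 12.70 and 12.50 on hypomorph HSC 1 to 3, and 8.13, 12.38 and 12.44 on hypomorph MP 1 to 3. Whether these arrays share mice was not tested, and the interaction terms above took no account of it. The block changed no call of the 5 genes. Set 2 holds no B progenitors, so those comparisons could not be made there.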
